A study of Nothobranchius furzeri with 10 samples.

Results

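The genes described here are 200 of the 26739 genes counted in a killifish brain experiment, chosen because every rotenone library lay below every DMSO library. They were found in 3 steps on CPM (each count divided by the total of its library and multiplied by 1000000). The 200 genes with the highest mean DMSO level and all genes with a mean under 1 CPM over the 10 libraries were left out, which left 18028 genes. Of these, 293 (1.63%) had their highest rotenone value below their lowest DMSO value, and the 200 members are those among them with a mean DMSO level at least 1.3 times the mean rotenone level. They make up 1.11% of the 18028 genes and were selected on the measured CPM values themselves. The rule used the contrast of rotenone with DMSO in all 10 libraries, so the levels and differences of the members are given as a description, and no test of that contrast stands behind them.

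The libraries were made from brains of the turquoise killifish Nothobranchius furzeri, an annual fish used in ageing research because of its short life. All samples were male, of the strain MZM-0410p and 27 weeks old, and the groups were 5 samples with DMSO, the solvent control, and 5 with rotenone at 15 pM. The labels give neither the route nor the length of the exposure, and they do not say whether a sample is 1 fish or a pool. Rotenone blocks complex I of the mitochondrial respiratory chain, the enzyme that takes electrons from NADH and passes them to ubiquinone while it pumps protons across the inner membrane. A partial block lowers the flow of electrons into the chain and can raise the release of reactive oxygen species, and nerve cells depend on this chain for most of their ATP. The deposited tables list genes by identifier only, and none of the identifiers occurs in the RefSeq gene table at hand (assembly NfurGRZ-RIMD1), so no member could be given a name or a role, and the brain origin could not be checked against marker genes. The identifiers of 2 members are printed, and the others are called by their rank, where rank 1 has the largest ratio of mean DMSO to mean rotenone CPM.

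Library totals ranged from 15536771 counts in DMSO replicate 5 to 31017835 in DMSO replicate 1, and 21575 to 22056 genes had at least 1 count. In CPM, rotenone replicate 1 stood apart from the other rotenone libraries: it was the highest of the 5 in 30.9% and the lowest in 32.6% of the 18028 genes, where the other 4 libraries were the highest in 15.6% to 20.1%. No DMSO library stood apart to that extent. Among them, replicate 4 was the lowest in 25.1% and the highest in 20.9%. DMSO replicate 2 was the highest in 25.4% and DMSO replicate 3 the lowest in 23.0%. Without rotenone replicate 1, 869 genes met the same rule, 192 of the 200 members among them. Without rotenone replicate 4 the number was 532, without DMSO replicate 2 it was 315, and with both rotenone replicate 1 and DMSO replicate 4 left out it was 1501. Leaving out a library also drops a condition of the rule, so these counts tend to rise.

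Most differences were modest. The median member had a mean DMSO level 1.59 times its mean rotenone level (quartiles 1.41 and 1.86), which is 37.2% less with rotenone. The median ratio over the 18028 genes was 0.992. By size, 74 members had a ratio between 1.3 and 1.5, 94 between 1.5 and 2, 23 between 2 and 3, and 9 had a ratio of at least 3. The largest was 12.5-fold. The space between the groups was narrow in most members: the lowest DMSO value exceeded the highest rotenone value by a median factor of 1.09 (upper quartile 1.18), and by more than 3 in a single one, at 3.28. Together the members held 8075 ± 562 CPM with DMSO and 4827 ± 243 CPM with rotenone (SD, n = 5 each). The summed level ran from 7432 to 8921 CPM in the DMSO libraries and from 4542 to 5075 CPM in the rotenone libraries. In such bulk samples, fewer cells of a type and less RNA per cell cannot be told apart.

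**Figure D1:**
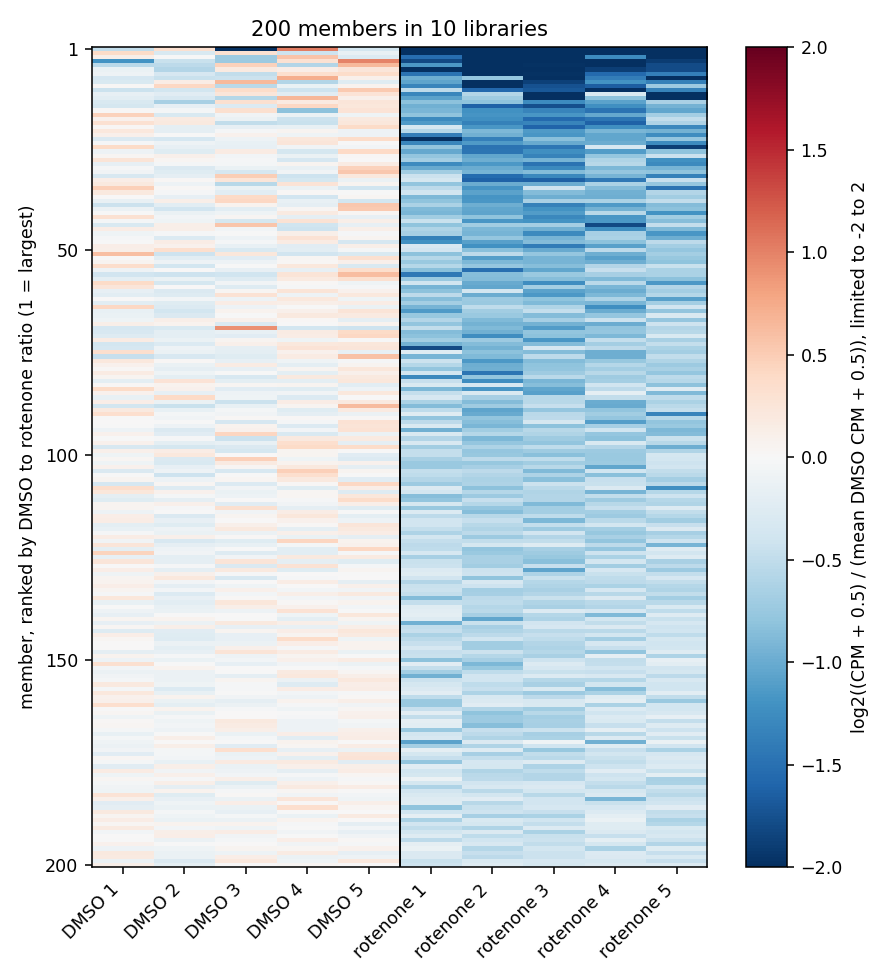
Each row is 1 of the 200 members, ordered by the ratio of mean DMSO to mean rotenone CPM, and each column is a library. Colour gives log2 of CPM plus 0.5 relative to the DMSO mean of the gene, limited to -2 and 2. All rotenone columns are on the blue side, as the rule requires, with the darkest rows among the first 32 members, whose ratio is at least 2.

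The member with the highest read level, Nfu_g_1_021435 (rank 6), was also among those with the largest differences. Its DMSO libraries held 341, 249, 424, 411 and 442 CPM in the order of the replicates, and its rotenone libraries held 88.1, 73.4, 78.2, 100.4 and 108 CPM. The lowest DMSO library was thus 2.31 times the highest rotenone library, and the means of 373 ± 79.4 and 89.6 ± 14.5 CPM (SD, n = 5 each) differed 4.17-fold. This gene alone made up 8.74% of the summed difference between the groups over all members. The ratio was 4.15 without rotenone replicate 1 and 4.06 without DMSO replicate 4.

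The widest space between the groups belonged to Nfu_g_1_009502 (rank 2). Its DMSO libraries held 23.6, 14.4, 22.1, 13.4 and 16.03 CPM, and its rotenone libraries 2.99, 1.43, 0.929, 4.07 and 2.68 CPM. DMSO replicates 1 and 3 were high within their group and rotenone replicates 1 and 4 within theirs, yet no rotenone library came within a factor of 3.28 of any DMSO library. The mean ratio was 7.40, and it was 7.86 without rotenone replicate 1.

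The other members with the largest ratios differed in how evenly their libraries lay. Rank 1 (12.5-fold) held 14.5, 25.8, 4.53, 42.3 and 15.96 CPM in the DMSO libraries against 3.999, 0.499, 0, 3.59 and 0.147 CPM in the rotenone libraries. Its DMSO replicate 3 was close to rotenone replicates 1 and 4, and 3 of the rotenone libraries were under 0.5 CPM. The ratio of rank 1 was 19.5 without rotenone replicate 1 and 9.24 without DMSO replicate 4. Rank 3 (5.73-fold) held 14.9, 13.6, 8.12, 20.6 and 11.3 CPM against 4.41, 1.85, 0, 5.45 and 0.221 CPM. Its lowest libraries, rotenone replicates 3 and 5, were also the lowest of rank 1, and DMSO replicate 4 was the highest of both. The 0 counts of rotenone replicate 3 in ranks 1 and 3 allow a level of up to 0.121 CPM (3 counts of its total, for counting error only).

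Rank 4 (5.32-fold) spread mostly within the DMSO group, with 4.45, 7.85, 6.33, 13.6 and 22.1 CPM, while its rotenone libraries lay together at 2.76, 1.43, 1.86, 1.62 and 2.54 CPM. Rank 5 (4.17-fold) held 8.96, 9.07, 18.4, 8.66 and 21.1 CPM against 5.70, 2.10, 2.99, 1.62 and 3.45 CPM. In both of them DMSO replicate 5 was the highest library, and rotenone replicate 1 was the highest of its group.

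**Figure D2:**
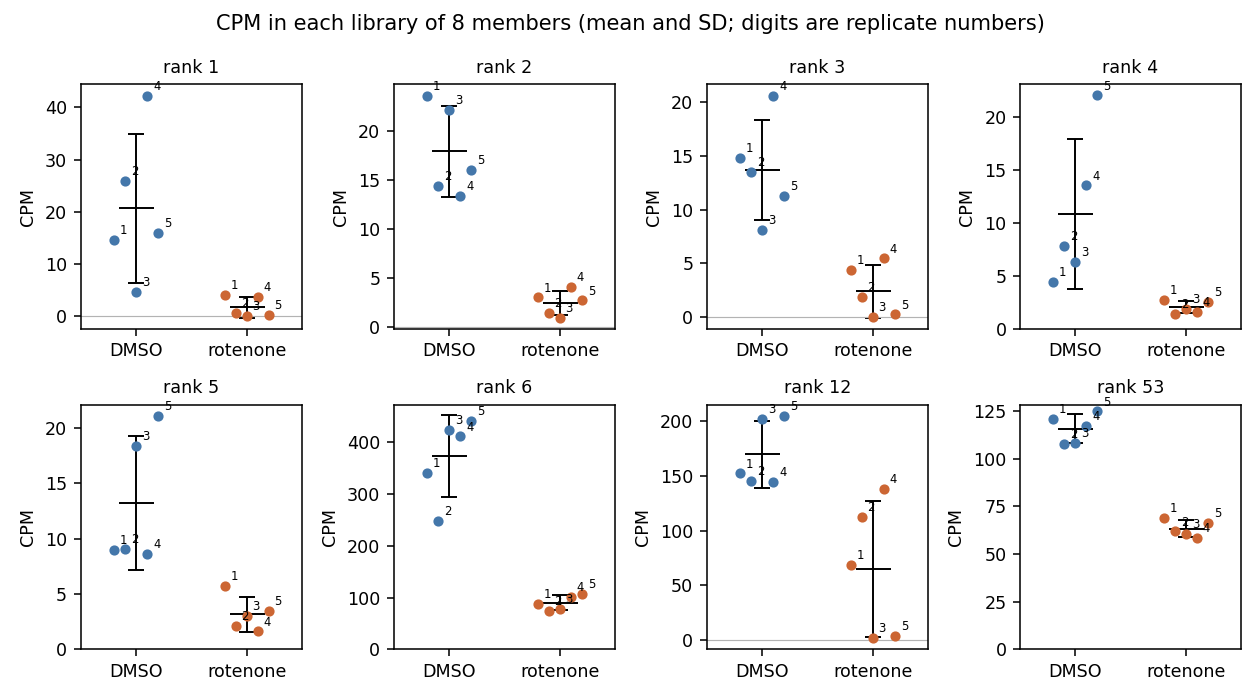
CPM in each library of 8 members: ranks 1 to 6, rank 12 and rank 53. Points are libraries with their replicate number, the horizontal bar is the mean and the vertical bar the SD (n = 5 each), and each panel has its own axis from 0 or below. Rank 12 shows 2 rotenone libraries near 0, and rank 53 shows both groups tightly packed.

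Baseline levels of the members were spread widely, from 0.250 to 179 RPKM. Per length, in RPKM (CPM per 1000 bases of gene length, with each library's own total), the median DMSO level was 7.16 for the members (quartiles 2.79 and 18.8) and 8.38 for the 18028 genes (quartiles 3.35 and 18.3). Gene lengths were also alike in their middle, with a median of 3066 bases for the members and 2751 bases for the 18028 genes. The members ran from 147 to 15655 bases. Sorted by DMSO read level, which sets the counting precision, members were 21 of the 2098 genes under 3 CPM and made up 1.15% of those between 3 and 10 CPM (43), 1.32% between 10 and 30 CPM (67), 0.905% between 30 and 100 CPM (45) and 1.10% at 100 CPM or more (24). The median ratio by class lay between 1.53 and 1.75.

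Per length, the member with the highest DMSO level was rank 12, at 179 RPKM over 948 bases. It held 152, 146, 202, 145 and 205 CPM in the DMSO libraries and 68.6, 113, 1.74, 138 and 3.49 CPM in the rotenone libraries. Rotenone replicates 3 and 5 lay far below the other 3, and rotenone replicate 4 came within 1.05-fold of the lowest DMSO library. Its rotenone mean was 64.9 ± 62.0 CPM (SD, n = 5). A level under 0.25 times the mean of the other 3 rotenone libraries in both replicates 3 and 5 was seen in 3 of the 200 members (1.5%) and in 62 of the 18028 genes (0.344%). This pattern was looked for after the values of rank 12 had been seen, and rank 12 is among the 3. The rule itself selects for low rotenone values, so nothing is read from the difference between these shares.

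The next by level per length, rank 52 (132 RPKM), held 86.5, 73.8, 73.3, 88.1 and 107 CPM against 57.3, 39.5, 44.7, 39.9 and 50.2 CPM. Rank 40 (110 RPKM) held 145, 121, 135, 161 and 226 CPM against 85.7, 76.5, 68.8, 81.3 and 89.3 CPM. Each of these 2 genes had DMSO replicate 5 as its highest library and the ratios of the means were 1.85 and 1.96. At the other end of the level scale, rank 117 had 0.250 RPKM with DMSO (1.48, 1.41, 1.93, 1.802 and 2.19 CPM against 1.24, 1.03, 1.13, 1.26 and 1.14 CPM). Rank 51 had 0.367 RPKM (5.61, 2.52, 4.23, 2.59 and 2.77 CPM against 1.79, 2.32, 1.86, 1.56 and 2.02 CPM). Rank 176 had 0.475 RPKM (2.55, 3.33, 2.74, 3.29 and 3.35 CPM against 2.53, 2.28, 1.82, 2.16 and 2.43 CPM). The lowest library of these 3 genes held 21, 26 and 36 reads, and the gap factors were 1.12, 1.09 and 1.01.

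**Figure D3:**
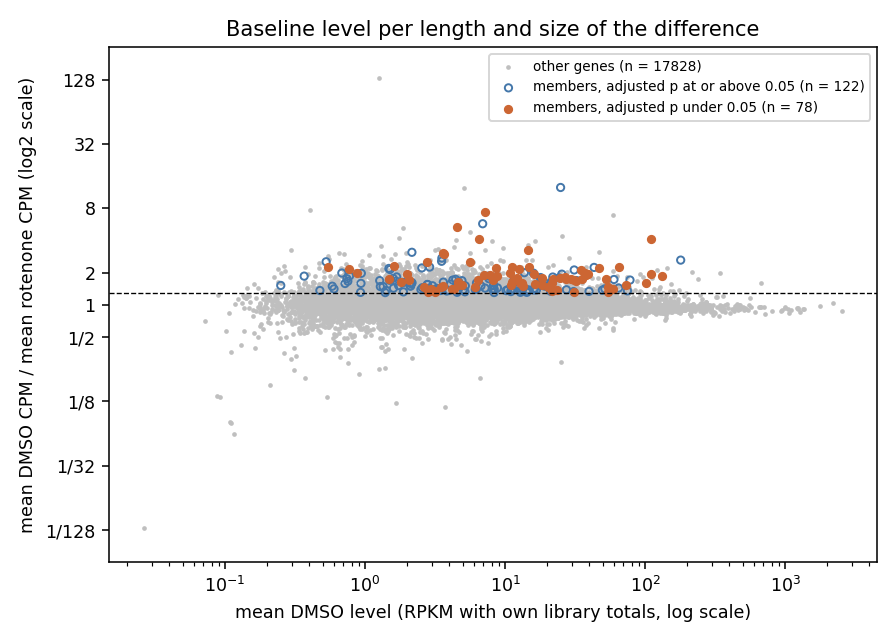
Mean DMSO level per length (RPKM with own library totals, log scale) against the ratio of mean DMSO to mean rotenone CPM (log2 scale) for the 18028 genes, with the 200 members marked by whether the edgeR adjusted p was under 0.05 (78) or not (122). The dashed line is the ratio of 1.3. Members lie between 0.250 and 179 RPKM, and many grey genes above the line are left out because their groups overlapped.

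In the fit across all 19628 tested genes (edgeR's quasi-likelihood test, Benjamini-Hochberg adjusted), all 200 members were tested, all 200 had a negative log2 fold change and 78 of them (39%) were called lower at an adjusted p under 0.05. Over all tested genes 85, or 0.433%, were called lower and 0.749% in either direction. An unadjusted edgeR p under 0.05 was reached by 199 members, and by 7.71% of all tested genes on the lower side. The rule used the same contrast, so nothing is read from the difference between these shares. The median log2 fold change of the members was -0.67, against a median of 0.01 over all tested genes. The median standard error of the members was 0.14, computed as the absolute log2 fold change over the square root of the F statistic. The 78 called members had a median ratio of 1.75 and a median gap factor of 1.19, and the 122 others had 1.51 and 1.07. The call, the ratio and the gap all come from the same contrast in the same libraries, so nothing is read from this split. Rank 1, rank 3 and rank 12 were not called, while rank 182, with 21.6, 24.3, 22.7, 23.6 and 22.8 CPM against 17.5, 15.8, 17.8, 17.9 and 16.3 CPM, was called at a ratio of 1.35. The number of members called lower by edgeR was 164 without rotenone replicate 1, where 6.01% of all tested genes were called lower, and all 78 were among the 164. It was 17, 51, 24, 20 and 20 without DMSO replicates 1 to 5, where 17, 69, 25, 23 and 21 of all tested genes were called lower. It was 12, 13, 61 and 51 without rotenone replicates 2 to 5, where 12, 13, 154 and 61 of all tested genes were. DESeq2 called 170 members and 396 of all genes lower. With limma-voom the numbers were 84 and 95, and with relative log expression scaling in edgeR 76 and 83. Without the filter on low counts edgeR called 71 and 78. In 12 members the edgeR call was made in each of the 10 fits without 1 library, and in 36 it was made in none of them. The fit without rotenone replicate 2 called 12 of all tested genes lower, all of them members, so no other gene was called in each fit. The count of genes called in none of the fits was not made over all tested genes. The members were chosen on this contrast, so nothing is read from the 12 or the 36.

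The spread within groups, as the coefficient of variation of CPM, had a median of 14.05% with DMSO and 15.9% with rotenone over the members. Over the 18028 genes the medians were 10.4% and 13.4%. The rotenone spread was the larger one in 123 members (61.5%) and in 70.0% of the 18028 genes. Without rotenone replicate 1, the median rotenone spread was 14.03% over the members and 10.6% over the 18028 genes. The rule removes genes with a high rotenone library or a low DMSO library, which bears on the spread within both groups. Nothing is therefore read from these differences between members and all genes. The widest members were ranks 1, 3 and 12, described above, with a rotenone coefficient of variation of 120%, 103% and 95.6%. By the larger of the coefficients of the 2 groups, the narrowest were rank 182 (5.57%), rank 53 (6.87%) and rank 193 (7.27%). Rank 53 held 121, 108, 108, 117 and 125 CPM against 69.2, 61.9, 60.6, 58.6 and 66.5 CPM, with means of 116 ± 7.59 and 63.3 ± 4.35 (SD, n = 5 each). Rank 193 held 69.6, 75.3, 65.8, 68.3 and 66.0 CPM against 57.3, 48.5, 50.4, 49.8 and 55.2 CPM. Rank 53 had a 1.83-fold difference and rank 193 a 1.32-fold one.

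Libraries were next compared within each group, by the mean of log2(CPM + 0.5). DMSO replicate 2 was above the group mean in 52 of the 200 members (26%) but in 56.9% of the 18028 genes. It was the lowest DMSO library in 66 members (33%) and in 17.7% of the 18028 genes. DMSO replicate 5, the library with the smallest total, was above the mean in 127 members (63.5%) and in 45.3% of the 18028 genes. The other 3 DMSO libraries were above it in 40% to 52% of the members. Within the rotenone group, replicates 1 and 5 were above the group mean in 135 and 134 members and replicates 2 and 3 in 71 and 66, where the 18028 genes gave 47.5% to 50.1% for each of these 4 libraries. Rotenone replicate 1 was the highest rotenone library in 65 members, replicate 5 in 58 and replicate 2 in 12. A library that is low in the DMSO group or high in the rotenone group lies at the border that the rule sets.

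**Figure D4:**
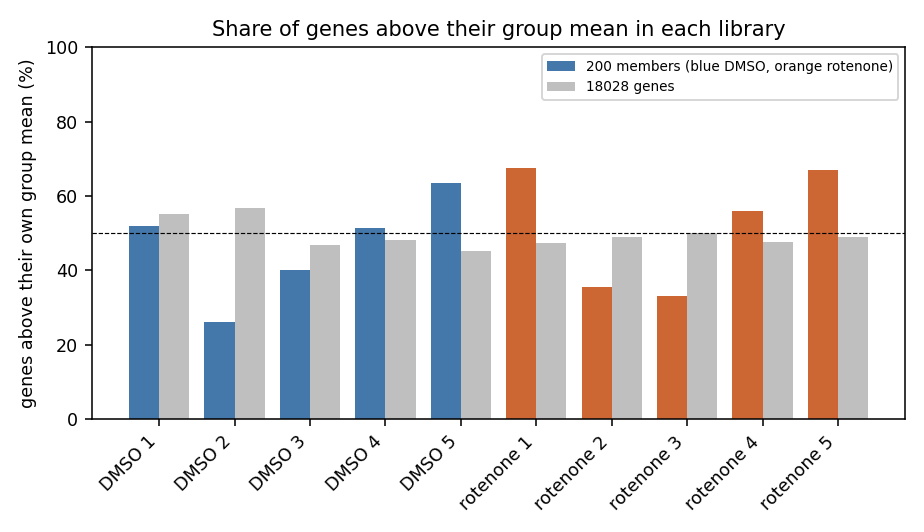
Share of genes above the mean of their own group in each library (percent), for the 200 members (blue for DMSO, orange for rotenone) and for the 18028 genes (grey). The dashed line is at 50%. Members run from 26% in DMSO replicate 2 to 67.5% in rotenone replicate 1, and the grey bars stay between 45.3% and 56.9%.

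On a log2 scale where 0 is the mean of the DMSO libraries and 1 the mean of the rotenone libraries, leaving out the library placed, rotenone replicate 1 had a median position of 0.827 over the members (quartiles 0.573 and 1.12). Rotenone replicate 5 lay at 0.850, replicate 4 at 0.939, and replicates 2 and 3 beyond the mean at 1.17 and 1.15. Among the DMSO libraries, replicate 2 lay nearest rotenone at 0.194 and replicate 5 farthest at -0.138. DMSO replicate 4 lay at -0.033. The library placed was left out of the means only. The members were chosen with it included, so the distance between the groups on this scale follows from the rule.

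A block of members shared the same high DMSO libraries. Replicates 4 and 5 were the 2 highest DMSO libraries in 49 members (24.5%), against 11.13% of the 18028 genes, and the next pair, replicates 3 and 5, led in 14%. In these 49 members DMSO replicate 4 was a median 1.27 times and DMSO replicate 5 a median 1.25 times the mean of DMSO replicates 1 to 3. That both lie higher follows from how the 49 were picked, and the same ratios were not computed for other genes. The 49 members had a median DMSO level of 16.7 RPKM, against 4.95 RPKM for the other 151 members. Their median ratio was 1.69 against 1.56. Neither the level nor the ratio was computed for all genes with these 2 libraries highest (11.13% of the 18028). Neither is therefore read as particular to these members. Rotenone replicate 1 was below its group mean of CPM in 27 of the 49 and in 38 of the 151. By the mean of log2(CPM + 0.5), this library was above its group mean in 47.5% of the 18028 genes. The count in the 49 is thus near the share over all genes and is no trait of the block. On the rotenone side, replicates 2 and 3 were the 2 lowest libraries in 52 members (26%), against 11.14% of the 18028 genes. The block was defined after these values had been seen, and none of its differences was tested.

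**Figure D5:**
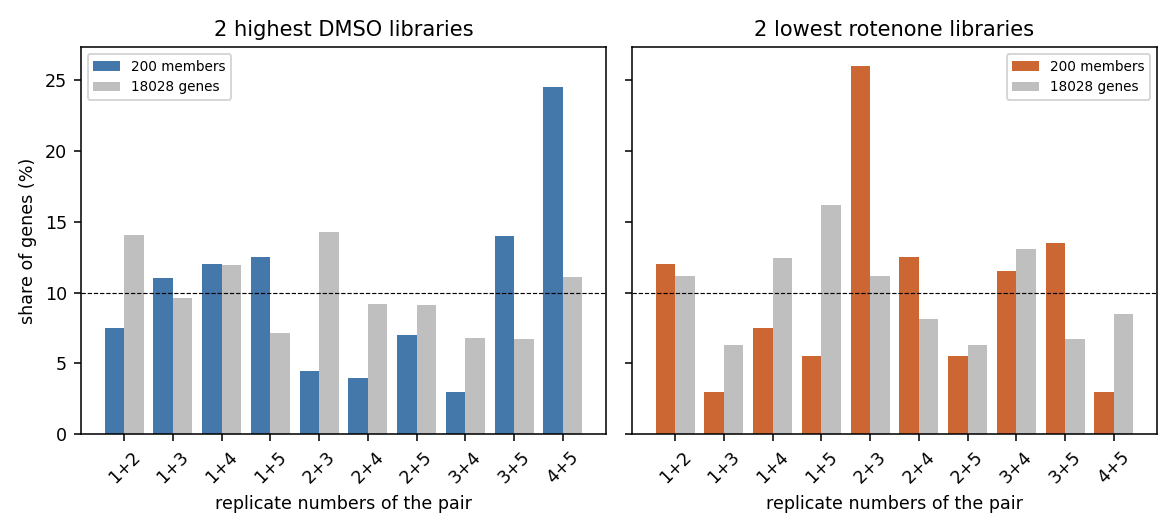
Share of genes (percent) for which each pair of replicates gave the 2 highest DMSO libraries (left) or the 2 lowest rotenone libraries (right), for the 200 members (coloured) and the 18028 genes (grey). The dashed line at 10% is an equal share of the 10 pairs. DMSO replicates 4 and 5 stand at 24.5% and rotenone replicates 2 and 3 at 26% of the members.

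The first principal component of the group-centred log2(CPM + 0.5) values held 41.7% of the variance of the members within the DMSO group and 61.3% within the rotenone group. The same shares were 36.1% and 55.0% over the 18028 genes. With each gene scaled to the same spread, the DMSO shares were 33.8% for the members and 33.2% for the 18028 genes, and the rotenone shares were 38.3% and 45.1%. Without the 3 members of widest spread (ranks 1, 3 and 12), the members' shares were 41.9% with DMSO and 37.5% with rotenone. The DMSO component set replicates 4 and 5 against replicates 1 to 3 in all 3 versions. The rotenone component changed with the version: it set replicates 3 and 5 against the others as first computed, replicates 1 and 5 against the others with genes scaled, and replicates 1 and 4 against the others without the 3 widest members. As a description over the 10 libraries, with group means removed, 4.05% of the 19900 pairs of members had a Pearson correlation of at least 0.7, against 4.74% of all pairs among the 18028 genes. A correlation of -0.7 or lower was found for 1.11% of the pairs of members and 4.24% of all pairs, and the medians were 0.10 and 0.004. The rule removes genes with a high rotenone library or a low DMSO library, which bears on these correlations. Nothing is therefore read from the differences between members and all genes.

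In the count table, 12 members stood in 6 pairs of adjacent rows. How many such pairs a random draw of genes would give was not computed. The sources used here do not say whether this order follows the chromosomes, and the library kit does not mark strand, so reads of overlapping genes cannot be told apart. Values of members with a near-identical copy elsewhere in the genome would be uncertain, and such copies could not be looked for without names or sequences. Ranks 41 and 46 had nearly equal ratios of 1.96 and 1.91 at different lengths of 1830 and 6075 bases. Rank 41 held 29.2, 26.5, 27.5, 33.07 and 29.9 CPM against 15.3, 13.8, 13.2, 19.8 and 12.5 CPM. Rank 46 held 44.3, 46.5, 47.0, 51.4 and 46.4 CPM against 29.6, 24.6, 19.2, 29.5 and 20.7 CPM. In both genes DMSO replicate 4 was the highest DMSO library and rotenone replicates 1 and 4 were the 2 highest rotenone libraries.

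Ranks 76 and 88 also shared their leading libraries. Rank 76 (300 bases) held 16.9, 18.7, 19.7, 26.4 and 35.3 CPM against 11.997, 12.4, 16.04, 11.6 and 16.5 CPM. Rank 88 (951 bases) held 13.7, 13.0, 16.1, 18.6 and 28.0 CPM against 9.61, 10.7, 12.8, 8.63 and 12.2 CPM. DMSO replicates 5 and 4 led both genes, and rotenone replicates 3 and 5 were the 2 highest rotenone libraries in both. Ranks 10 and 18 shared rotenone replicate 5 as their highest rotenone library, at 5.00 and 21.3 CPM. Ranks 30 and 40 had ratios of 2.14 and 1.96, with DMSO replicate 5 highest in both. The remaining pairs were ranks 26 and 104, with 2.20 and 1.58, and ranks 118 and 148, with 1.51 and 1.42. Their DMSO order differed. DMSO replicate 4 was the lowest DMSO library of rank 26 (25.3 CPM) but the highest of rank 104 (4.31 CPM). In rank 118 it was the lowest (5.37 CPM), while in rank 148 it held 42.8 CPM and the lowest held 33.8 CPM. How often any pair of members shares its leading libraries was not counted. Among the 273 genes in a row next to a member that were not members themselves and were at least at the level floor, the median ratio was 1.02 and 54.2% had a ratio above 1, where 47.6% of the 18028 genes did. In 2 of the 273 (0.733%) all rotenone values lay below all DMSO values, and edgeR called 0 of them lower. Such separate groups were found in 293 of the 18028 genes (1.63%), of which 200 are members and 93 are not. The 273 genes hold no members, while the 18028 include all 200. The 0.733% is therefore not to be set against the 1.63%, nor the 54.2% against the 47.6%. None of these differences was tested.

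The borders of the rule fell among genes with like values. The members with the smallest ratio had 1.301 and 1.303, and the first genes outside had 1.299 and 1.294. The member with the narrowest gap had 3.45 CPM in both its lowest DMSO and its highest rotenone library, a factor of 1.0001. The first gene on the other side of that border had 2.672 against 2.674 CPM and a mean ratio of 1.59. The lowest mean over the 10 libraries among members was 1.17 CPM, and the first gene under the floor had 0.976 CPM. In all, 1576 genes had a ratio of at least 1.3 but overlapping groups, 93 had separate groups and a smaller ratio, 51 met all but the floor, and 2 met all but the limit on abundance.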

How the data were processed

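The authors deposited, for each gene, read counts without normalization, in whole numbers, and RPKM for the same 26739 genes in 10 libraries. The submitters' processing notes list featureCounts 1.4.6-p4, STAR 2.4.1d and bcl2fastq 1.8.4. Build and annotation: not given in the sources used here. Libraries were made from total RNA with the TruSeq kit v2, per the labels' protocols. The deposited RPKM values follow a division by the 10 library totals taken in turn down each column, as tested on the values: the implied gene length varied by a median of 0.0026% over 14242 genes. They were used only to recover gene lengths, and RPKM was recomputed with own totals. Of 38438 genes in the RefSeq table, 0 matched an identifier, so the marker genes listed for brain cell types were not used.

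CPM used raw column totals. The fit across genes was made with R 4.3.3 and edgeR 4.0.16 (low counts removed by filterByExpr with a minimum count of 10 and a minimum total of 15, TMM, quasi-likelihood test, adjusted p under 0.05). DESeq2 1.42.0 and limma-voom (limma 3.58.1), other scalings and filters, and leaving out libraries were alternatives. The scripts were tested on simulated data. Identifiers are printed for the member with the highest mean DMSO CPM and for the one with the largest gap. Ranks described are the 6 largest ratios, the 3 highest and lowest levels per length, the 3 widest and narrowest spreads, adjacent rows and the borders of the rule. The members and these rules were chosen with earlier results of these data known. Groups follow the labelled perturbation, and replicates were numbered in accession order. Whether samples are separate fish is not stated, and p-values then measure only the spread between these samples, which may be technical. Replicates differed by more than sampling noise, with chi-square per degree of freedom of 13.7 to 72.4. Pairs with rotenone replicate 1 gave 60.0 to 72.4, and all other pairs gave 13.7 to 38.5. Counting error adds to this spread, mostly in members with few reads: the median member had 313 reads per library (lowest 23.5). Figures were drawn with matplotlib 3.10.9.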

Additional observations from a re-analysis of the deposited data

Results flagged for a closer look

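A sample far from the others of its group was looked for in 64 groups of 5 values, and 2 were found. For unselected values chance marks about 1 in 20. The rule and the choice of ranks selected these values, so that rate is only a rough guide here. In rank 18, rotenone replicate 5 held 21.3 CPM and the other rotenone libraries 9.94 to 12.6 CPM. In rank 104, rotenone replicate 3 held 1.37 CPM and the other rotenone libraries 1.89 to 2.10 CPM. Over all 200 members, 21 of 400 groups had such a sample. The most frequent were DMSO replicate 1 as the highest library, in 6 members, and rotenone replicate 5 as the highest, in 4.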

How the results depend on the processing

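The number of genes meeting the rule was 200 and stayed within 1.5 times of it with TMM totals (201, 193 of them members), relative log expression totals (193, 190 of them members), other floors and no limit on abundance. It was 126 at a ratio of at least 1.5 and 32 at a ratio of at least 2, which the rule's own construction gives, and 211 to 869 without 1 library. Without 1 library, edgeR called 12 to 1186 genes lower and 11 to 1002 higher, and 12 to 164 members lower. With rotenone replicate 1 and DMSO replicate 4 left out together, 1501 genes met the rule, and edgeR called 1564 genes lower, 1202 higher and 156 members lower. DESeq2 called 396 genes lower, 428 higher and 170 members lower. With limma-voom, 95 genes were called lower, 58 higher and 84 members lower. Relative log expression scaling in edgeR gave 83, 66 and 76, and edgeR without the filter on low counts gave 78, 46 and 71. Fits without a library have fewer samples, and the causes of the other changes were not tested. The log2 fold change of all 200 members was below 0 in all 16 fits. For 15 members described by rank, all 225 values were below 0, with 39 calls lost and 6 gained. The rule had set every rotenone CPM of a member below every DMSO CPM. These signs therefore follow from the rule and say nothing about stability. The first component within the rotenone group held 38.3% with genes scaled to the same spread and 37.5% without the 3 widest members, both chosen after seeing the data. The counts of members above their group mean stayed within 1.5 times in each alternative run. No paired analysis was possible because the sample numbers in the titles differ between the groups and nothing in the labels ties a DMSO sample to a rotenone sample. At low levels a few reads decide membership.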

Other observations

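The 2 genes that met all of the rule but the limit on abundance had mean levels of 510 CPM with DMSO and 313 CPM with rotenone, and of 696 and 449 CPM. Of the 85 genes called lower by edgeR, 7 were not members: 3 had a ratio under 1.3, 2 had overlapping groups, 1 was among the 200 most abundant genes and 1 was under the floor. The mirrored rule for higher levels with rotenone was met by 122 genes. Without the limit on the ratio, the groups did not overlap in 404 genes that were higher with rotenone (2.24% of the 18028) and in 293 that were lower (1.63%).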
